A study of Mus musculus with 11 samples.

Results

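The comparison described here is between mutant mice that carry an inducible deletion of Itga6 but were given NaCl in place of the inducing drug, and wild-type mice that were given tamoxifen. No deletion is expected in either group, so the comparison measures how far the 2 reference groups of the study lie apart before any loss of integrin α6. Its members are the 4 arrays labelled mutant and NaCl and the 3 arrays labelled wild type and tamoxifen, 7 of the 11 arrays of the series, read over all 19946 genes that a transcript cluster with 1 gene symbol measured. The other 4 arrays, from mutant mice given tamoxifen, entered the fit to share the estimate of the spread and are otherwise mentioned for their values beside those of the reference groups.

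RNA was taken from rectal mucosa, and each of the 11 mice had its own Affymetrix Mouse Gene 1.0 ST array; levels are on the log2 scale. The mice were 10 weeks old. Per the labels, from the age of 8 weeks they had received 2 doses by gavage within 5 days, of tamoxifen at 10 mg per day or of the NaCl solution it is dissolved in, and tissue was taken on day 15 after the first dose. The mutant strain, named α6ΔIEC-TAM, deletes Itga6 in intestinal epithelial cells after tamoxifen. The labels name neither the promoter that drives the recombinase, nor the strain background, nor whether the wild-type controls carried the recombinase or were littermates. In the control tamoxifen group 2 of 3 mice were male (arrays 1 and 3), and in the mutant NaCl group 1 of 4 was male (array 4). The array numbers only name the animals. Genotype and drug both differ between these groups and cannot be told apart, and because sex is unevenly spread, every difference below is adjusted for sex unless it is given within a sex. A p-value here weighs a difference against the spread between animals within groups, pooled over all 11 arrays, mutant tamoxifen included.

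Integrin α6 pairs with integrin β4 in the hemidesmosome, which anchors epithelial cells to laminin in the basement membrane. Deletion models driven by tamoxifen rest on a drug that is itself active, since tamoxifen and its metabolites bind estrogen receptors and are oxidised, conjugated and exported by the enzymes and pumps that gut and liver use against foreign compounds. The rectal epithelium takes up salt, water, calcium and phosphate and replaces itself from crypts, and its lamina propria holds antigen-presenting cells and lymphocytes that respond to interferons.

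Of the 19946 genes, 0 passed an adjusted p of 0.05 between mutant NaCl and control tamoxifen (limma, Benjamini-Hochberg adjustment over all genes; 0% called in either direction). At an unadjusted p under 0.05 there were 1625 genes (8.15%), of which 693 (3.47%) read higher and 932 (4.67%) lower in mutant NaCl. The smallest adjusted p was 0.0530, for S100g. A fit to the 7 arrays of these groups alone called 3 genes, which are named in the last section. By contrast, 24.6% of genes were called between mutant tamoxifen and control tamoxifen and 23.2% between mutant tamoxifen and mutant NaCl; these comparisons share arrays with the one described here.

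The fit also limits how large a missed difference can be. The median standard error of a gene's difference was 0.07, with 7 residual degrees of freedom before variances were moderated, and the median difference over all genes was -0.01. For 98.5% of genes the 95% confidence interval lay within a 2-fold difference in either direction, and for 95.2% within 1.5-fold. The fitted difference reached 2-fold in 39 genes, 24 higher and 15 lower in mutant NaCl, and reached 1.5-fold in 93 higher and 43 lower. The largest increase, 2.62, was that of a hair keratin-associated (Krtap) gene. Krtap genes averaged 7.07 in mutant NaCl array 4 and 6.07 to 6.37 in the other mutant NaCl and control arrays. The Krtap genes were singled out after the values were seen.

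The arrays did not separate cleanly by group. Of all genes, 1624 (8.14%) had groups that did not overlap, meaning that all values of one group lay above all of the other, with 563 higher and 1061 lower in mutant NaCl. Sex called 7 genes (0.0351%) as male minus female in the same fit. Correlations between arrays over all genes were 0.988 to 0.995 within control tamoxifen, 0.992 to 0.996 within mutant NaCl and 0.986 to 0.997 between the groups. On the first principal component, which held 42.9% of the variance, control tamoxifen array 1 lay at -28.2 and array 3 at -12.8, while control array 2 lay at 11.4, among the mutant NaCl arrays at 15.6, 12.8, 1.37 and -0.23. Control tamoxifen array 1 thus stood farthest from the rest, and results that rest on it are given with and without it below.

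**Figure D1:**
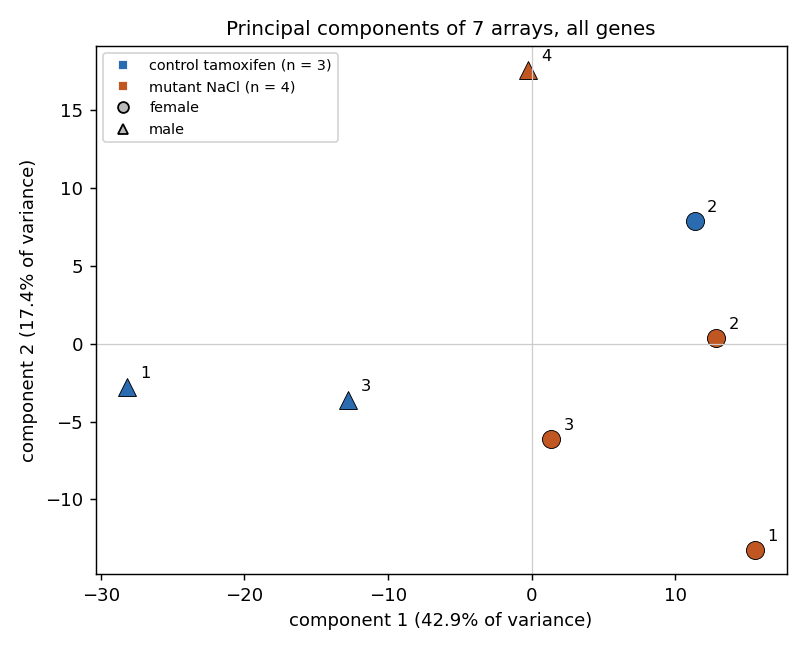
Each point is 1 array of the 7, placed by its scores on the first (42.9% of variance) and second (17.4%) principal components of all 19946 genes; color marks the group, shape the sex and the number the array. Control tamoxifen array 2, the female of its group, lies among the mutant NaCl arrays, and the 2 male controls lie apart on the left.

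The labelled tissue was checked against marker genes. The 16 intestinal epithelium markers, such as Epcam, Vil1 and Cdh17, had mean levels of 11.80, 11.89 and 11.91 in the control arrays and 11.88, 11.87, 11.91 and 11.88 in mutant NaCl, with a median difference of 0.02. Markers of other tissue were also present and varied between animals. The 22 stratified squamous epithelium genes, which mark the lining of the anal canal, ranged in mean level from 6.76 to 10.16 in the controls and from 8.80 to 10.12 in mutant NaCl. The 15 skeletal muscle genes averaged 9.11 in control array 3 and 7.43 to 8.41 in the other arrays. Fewer cells of a type and less RNA per cell cannot be told apart in these bulk samples, and the part these tissues play in the differences below was not tested.

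Itga6 itself did not separate the reference groups. Its levels were 11.15 in control array 1, 11.52 in array 2 and 11.49 in array 3, against 11.39, 11.28, 11.49 and 11.47 in mutant NaCl arrays 1 to 4. The groups overlapped, and the difference was 0.01 (95% confidence interval -0.20 to 0.22, adjusted p = 0.987). The mutant tamoxifen arrays read 11.75, 11.93, 11.84 and 11.77, above every control, a difference of 0.42 from control tamoxifen (adjusted p = 0.00950). A cluster-level value averages probes along the transcript, and which of them lie in the deleted part is not given in the sources used here, so the level of Itga6 cannot serve as a check of the deletion. On chromosome 2 the 10 measured genes on each side of Itga6 were read in RefSeq order. They ran from Dcaf17 to Platr26 before Itga6 and from Pdk1 to Gpr155 after it. Their differences ran from -0.17 (Gpr155) to 0.16 (Hat1), with 0 of 20 at an unadjusted p under 0.05 (8.15% of all genes). Of these neighbours Dlx1 alone had groups that did not overlap (8.14% of all genes), with a difference of -0.13. Both counts are near the shares over all genes, so they are no result about this region. The 17 hemidesmosome and laminin adhesion genes had a median difference of -0.00, and Itgb4, the partner of integrin α6, differed by -0.00.

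The list of calcium and phosphate uptake genes held the gene of smallest p and another of the largest differences, both lower in mutant NaCl. S100g encodes calbindin-D9k, the carrier that shuttles calcium through the absorptive cell. It lies on the X chromosome and is named through its list, as sex-linked genes were otherwise left out. Its levels were 11.15, 11.54 and 11.32 in the control arrays (mean 11.3 ± 0.195, SD, n = 3) and 9.74, 9.67, 9.77 and 9.24 in mutant NaCl (mean 9.61 ± 0.248, SD, n = 4). Every mutant NaCl array lay more than 1 log2 unit below every control. The difference was -1.93 ± 0.21 (SE), or 3.80-fold lower, with a 95% confidence interval of -2.40 to -1.45 and an adjusted p of 0.0530, just outside the threshold. Within females it was -1.81 and within males -2.00, and without control array 1 it was -1.94. Over 24 alternative analyses the S100g difference ran from -2.04 to -1.73 and its adjusted p from 0.000256 to 0.376, with 8 of the 24 past the threshold. In mutant tamoxifen, which shares its genotype with mutant NaCl and its drug with the controls, the mean of S100g was lower still, 7.77 ± 0.553 (SD, n = 4).

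Slc34a2, the sodium-phosphate cotransporter of the luminal membrane, showed the same order. It read 10.81, 10.37 and 10.43 in the controls and 8.56, 8.88, 8.71 and 8.83 in mutant NaCl. The groups were far apart relative to their spread, with SDs of 0.238 and 0.140, and the difference of Slc34a2 was -1.95 (SE 0.34, adjusted p = 0.396). That SE also takes in the mutant tamoxifen arrays, where the SD of Slc34a2 was 0.809. The within-sex values were -1.66 in females and -1.79 in males; the pooled value lies outside them because its sex term is also estimated from the mutant tamoxifen arrays, where the one male read lowest. The adjusted p of Slc34a2 ran from 0.00532 to 0.570 over the alternatives and passed the threshold in 2 of 24.

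Of the 17 calcium and phosphate uptake genes measured, 0 passed the threshold, 5 were lower (4.67% of all genes) and 0 higher at an unadjusted p under 0.05, and 8 had groups that did not overlap, all lower in mutant NaCl (5.32% of all genes did so in that direction, and 2.82% in the other). The other members with separated groups were Slc30a10, a manganese exporter (difference -0.43), Cldn15, a claudin of sodium-permeable junctions (-0.35), Atp2b1, the calcium pump of the basolateral membrane (-0.23), Vdr, the vitamin D receptor (-0.17), Casr, the calcium-sensing receptor (-0.12), and Slc34a3 (-0.10). Trpv6, the luminal calcium channel, differed by -1.04 with groups that overlapped: the controls were at 9.48, 10.33 and 8.61 and mutant NaCl between 8.58 and 8.81. The median difference over the list was -0.11, close to the -0.01 of all genes, because Calb1, Trpv5, Cldn12 and other members lay near 0. The list averaged 8.91, 8.79 and 8.69 in the controls and 8.47, 8.47, 8.46 and 8.42 in mutant NaCl, without overlap.

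**Figure D2:**
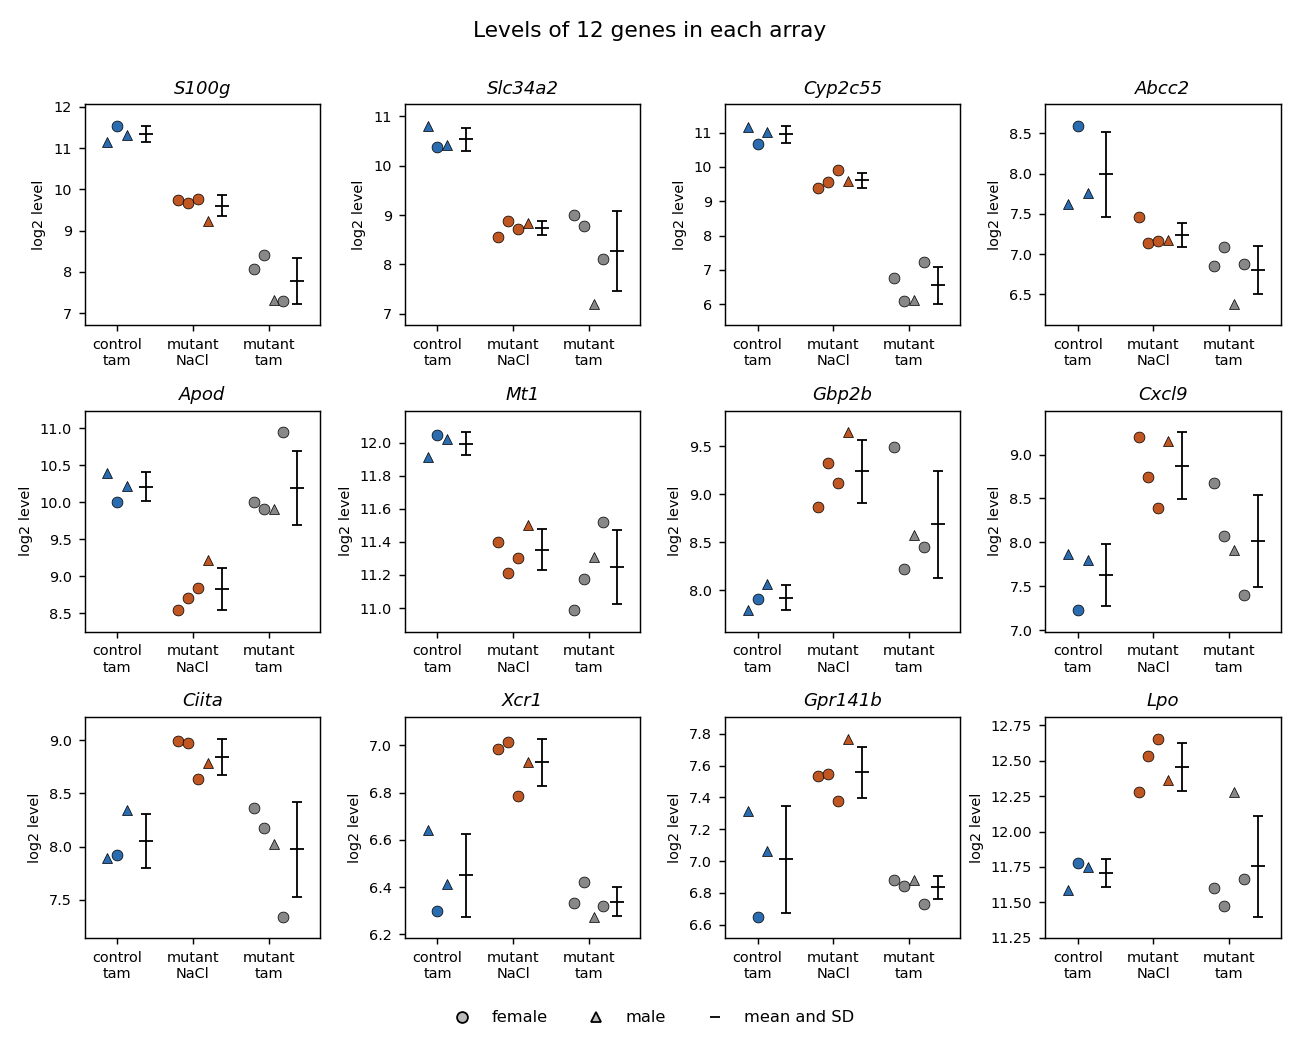
Each panel gives the log2 level of 1 gene in all 11 arrays, with circles for females, triangles for males and the mean and SD of each group beside the points; the vertical axes differ between panels. S100g, Slc34a2, Cyp2c55 and Mt1 read lower in all 4 mutant NaCl arrays than in the 3 controls, Gbp2b, Cxcl9, Ciita and Lpo read higher, and Apod in mutant tamoxifen is at the control level.

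Genes that handle foreign compounds included several with lower values in mutant NaCl. Cyp2c55, a cytochrome P450 of the colon, read 10.67 to 11.16 in the 3 controls and 9.39, 9.55, 9.91 and 9.59 in mutant NaCl, so the groups were separate. The difference of Cyp2c55 was -1.37 (SE 0.27, 95% confidence interval -1.97 to -0.77, adjusted p = 0.399). Abcc2, an export pump for conjugated compounds, read 7.62, 8.59 and 7.76 in the controls and 7.46, 7.14, 7.16 and 7.18 in mutant NaCl, a difference of -0.96 (SE 0.16, adjusted p = 0.396). The female control held the highest Abcc2 value by a wide margin, and the difference was -1.34 within females and -0.51 within males.

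Abcb1a, which encodes the drug efflux pump P-glycoprotein, read 12.32, 12.01 and 12.23 in the controls and 11.74 to 11.78 in mutant NaCl, a difference of -0.40 (adjusted p = 0.459). Cyp2d12, another P450, differed by -0.66, and Ces2a, a carboxylesterase, by -0.41. Of the 32 xenobiotic response genes 0 passed the threshold, 5 were lower and 1 higher at an unadjusted p under 0.05 (4.67% and 3.47% of all genes), and 7 had separate groups, all lower in mutant NaCl (5.32% of all genes); the remaining separated members were Abcg2 (-0.13) and Cyp1b1 (-0.09). The gene that was higher was Tiparp, a target of the aryl hydrocarbon receptor (0.18, groups overlapping). Nr1i2 and Nr1i3, the receptors PXR and CAR that induce such enzymes, differed by -0.07 and -0.21, and the textbook PXR target Cyp3a11 by 0.02. The median over the list was -0.06. In mutant tamoxifen Cyp2c55 was lower again: 6.75, 6.10, 6.12 and 7.22, a difference from control tamoxifen of -4.43 (adjusted p = 1.01e-05).

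The 18 estrogen receptor target genes measured had a median difference of -0.01. At an unadjusted p under 0.05, 2 were higher and 2 lower (3.47% and 4.67% of all genes). Ctsd, a lysosomal protease, differed by -0.32 with separate groups and the membrane estrogen receptor Gper1 by -0.22, while Esr1, estrogen receptor alpha, differed by 0.32 and Ccnd1, cyclin D1, by 0.17. Pgr, Greb1 and Tff1, classical targets, differed by -0.34, -0.01 and -0.16, with overlapping groups.

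Other absorptive genes had small differences of both signs. Of 28 absorptive colonocyte transport genes 12 had differences above 0 and 16 below, against 9048 of the 19946 genes above 0. At an unadjusted p under 0.05, 4 were lower (4.67% of all genes) and 0 higher, and 4 had separate groups, all lower (5.32% of all genes). Slc16a1, the monocarboxylate carrier for butyrate, read 11.69 to 11.76 in the controls and 11.40 to 11.54 in mutant NaCl, a difference of -0.26. Car2, a carbonic anhydrase, and Slc26a2, a sulfate carrier, each differed by -0.26 as well. The anion exchanger Slc26a3 (-0.13) and the chloride channel Cftr (0.12) did not separate the groups. The 14 aldosterone-sensitive sodium uptake genes had a median of 0.05 with 2 members higher (3.47% of all genes) and 0 lower at an unadjusted p under 0.05: Scnn1g, the gamma subunit of the epithelial sodium channel (0.52, controls 10.46, 11.58 and 10.83, mutant NaCl 11.51 to 11.76, overlapping), and the kinase Sgk1 (0.50, separate groups).

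Several further genes with separate groups and small p read lower in mutant NaCl. Apod, a lipid-binding lipocalin, read 10.39, 10.01 and 10.22 in the controls and 8.54, 8.71, 8.84 and 9.22 in mutant NaCl. The groups were separate, and the difference was -1.32 (SE 0.26, 95% confidence interval -1.89 to -0.75, adjusted p = 0.399, and past the threshold in 2 of 24 alternatives). Unlike S100g and Cyp2c55, Apod in mutant tamoxifen was at 10.01, 9.90, 9.91 and 10.94, a difference of 0.04 from control tamoxifen (adjusted p = 0.921). Papln, an extracellular matrix protein, gave a difference of -0.34 in mutant NaCl and 0.03 in mutant tamoxifen.

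Mt1, a metallothionein that binds zinc and copper, read 11.91, 12.04 and 12.02 in the controls and 11.40, 11.21, 11.30 and 11.50 in mutant NaCl, a difference of -0.61 with an adjusted p of 0.399. Abcg5, which with its partner exports plant sterols, differed by -0.79, Hpgds, the hematopoietic prostaglandin D synthase, by -0.57, Bnip3, a mitophagy receptor, by -0.52, and Rbp2, a retinol carrier, by -0.78. Ypel2 (-0.41), the histone gene H2bc21 (-0.32) and the adhesion gene Hepacam (-0.31) completed the genes of smallest p. For Mptx1, a mucosal pentraxin, the difference was -2.64, the largest decrease among all genes tested, but its confidence interval ran from -4.42 to -0.85. Its controls read 10.70, 8.83 and 9.10 and mutant NaCl 6.81, 7.46, 7.07 and 7.02, so control array 1 was highest, and without it the Mptx1 difference was -2.06.

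Gpnmb and Wfdc17, expressed by macrophages, differed by -1.13 and -1.05, with -1.66 and -1.63 in males and -0.43 and -0.32 in females; the test of the difference between the sexes gave adjusted p of 0.533 for Gpnmb and 0.278 for Wfdc17. Without control array 1, the highest control for both genes, the differences were -0.86 and -0.84. Without control array 2, the female, the differences were -1.77 and -1.70, and Wfdc17 then passed the threshold (adjusted p 0.0115 to 0.913 over the alternatives). The 16 macrophage and dendritic cell markers had a median of -0.14, with 3 lower (4.67% of all genes) and 0 higher at an unadjusted p under 0.05: Clec10a (-0.62, separate groups), Cd68 (-0.39) and Ms4a7 (-0.32). Their mean level was 9.23, 9.08 and 9.44 in the controls and 9.16, 9.19, 9.16 and 8.98 in mutant NaCl.

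**Figure D3:**
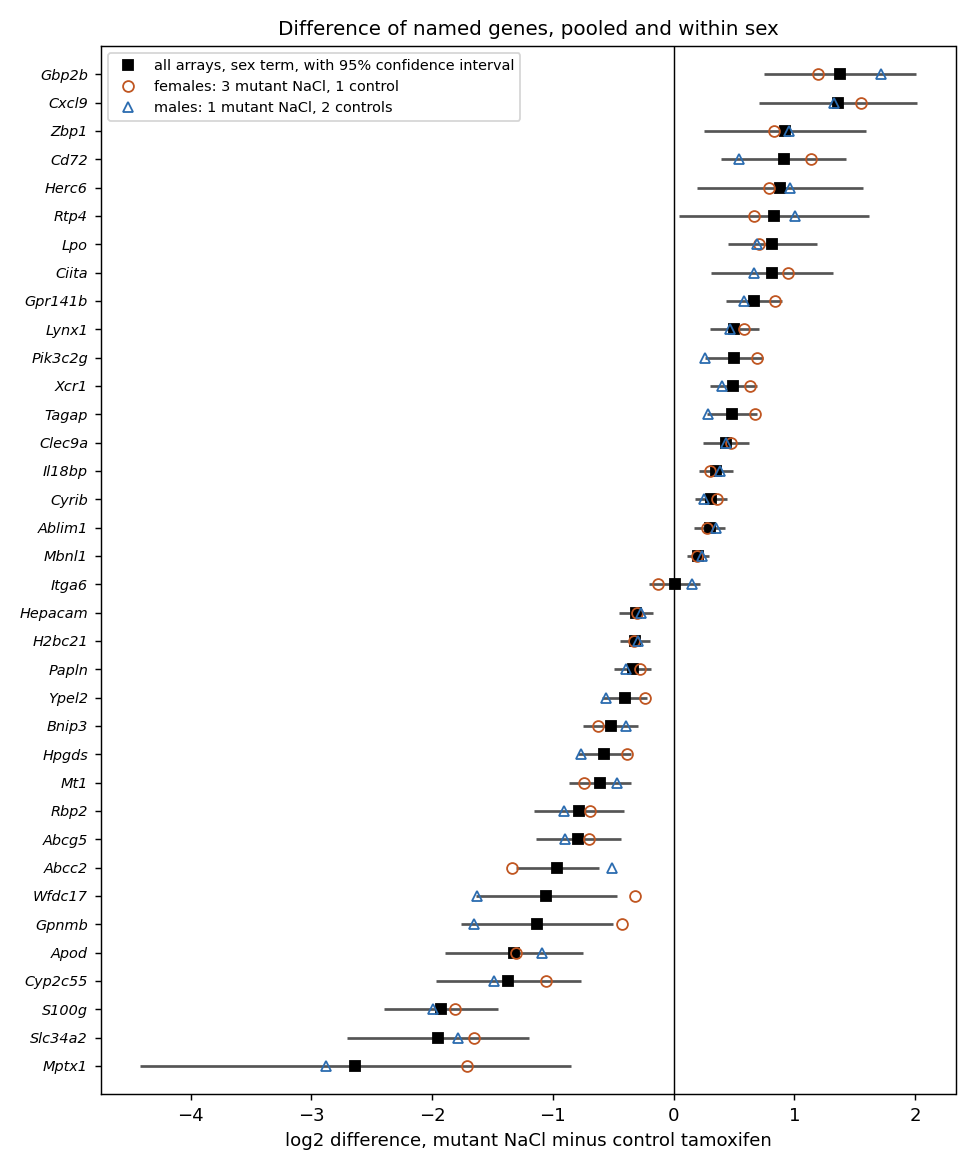
Log2 differences, mutant NaCl minus control tamoxifen, of the genes with the smallest p or the largest difference, of S100g and of Itga6, with the 95% confidence interval of the fit to all arrays (squares) and the difference within females (circles, 3 against 1 array) and within males (triangles, 1 against 2). Every gene shown except Itga6 has the same sign in both sexes. These genes were chosen by the values of the same arrays, so the shared sign is no independent check.

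Among genes that read higher in mutant NaCl, the interferon-induced list held more members with separate groups than any other list examined. The promoters of 2 of these members, Cxcl10 and Irgm1, and of Gbp2b, an interferon-induced gene outside the list, are shown because they hold the motif known for interferon-activated factors. The interferon-stimulated response element was searched as GAAANNGAAA on both strands of the 250 bases before each RefSeq gene start (GRCm38.p6), and matches are in capitals, so a match on the other strand appears as the reverse complement. Each is written in the direction of the gene, 5′ to 3′.
Gbp2b: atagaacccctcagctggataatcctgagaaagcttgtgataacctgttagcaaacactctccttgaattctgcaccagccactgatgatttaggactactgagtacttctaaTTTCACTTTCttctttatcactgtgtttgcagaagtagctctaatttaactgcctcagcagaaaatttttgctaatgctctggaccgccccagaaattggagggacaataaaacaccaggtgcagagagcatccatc
Cxcl10: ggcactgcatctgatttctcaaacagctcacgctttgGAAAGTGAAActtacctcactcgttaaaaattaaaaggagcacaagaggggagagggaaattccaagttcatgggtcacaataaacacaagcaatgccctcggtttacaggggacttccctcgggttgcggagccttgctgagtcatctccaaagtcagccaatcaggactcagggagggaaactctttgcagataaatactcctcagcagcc
Irgm1: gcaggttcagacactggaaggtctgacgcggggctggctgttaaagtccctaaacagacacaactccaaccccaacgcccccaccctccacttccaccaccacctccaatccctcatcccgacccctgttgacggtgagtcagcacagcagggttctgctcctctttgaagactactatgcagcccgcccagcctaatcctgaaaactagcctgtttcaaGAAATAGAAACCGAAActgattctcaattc
Gbp2b (chr3:142594597-142594846, plus strand) encodes an interferon-induced guanylate-binding protein and holds 1 match, whose first base lies at -137 from the gene start. Cxcl10 (chr5:92348890-92349139, minus strand), a chemokine for T cells, holds 1 at -213. Irgm1 (chr11:48871421-48871670, minus strand), an immunity-related GTPase, holds 2 that overlap, at -30 and -24.

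Of the 21 interferon-induced genes measured, 14 had a promoter in the RefSeq table, and 8 of those 14 (57.1%) held the motif in at least 1 window, against 936 of 27025 genes (3.46%). The gamma-activated site, searched as TTCNNNGAA on both strands, was found for 3 of the 14 (21.4%) and for 8.13% of all genes; in Bst2 it overlaps a response element. Cxcl9, the list member with the largest difference, held neither in its window. The list holds genes known to respond to interferon, so a high share was close to given and says nothing about these arrays. A match is a description of the sequence and not evidence that a factor binds there.

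The level of Gbp2b was 7.80, 7.91 and 8.06 in the controls and 8.87, 9.33, 9.12 and 9.65 in mutant NaCl. All 4 mutant NaCl arrays lay above the controls, and the difference was 1.38 (SE 0.28, 95% confidence interval 0.75 to 2.00, adjusted p = 0.403). Cxcl9, the chemokine induced by interferon gamma, read 7.86, 7.22 and 7.79 in the controls and 9.20, 8.75, 8.39 and 9.16 in mutant NaCl, also without overlap. Its difference was 1.36 (SE 0.30, adjusted p = 0.459), with 1.55 in females and 1.33 in males. In mutant tamoxifen Gbp2b was at 8.23 to 9.50 and Cxcl9 at 7.40 to 8.68, between or across the reference groups.

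Over the 21 genes of the list the median difference was 0.63, against -0.01 for all genes. Of these, 0 passed the threshold, 9 were higher and 0 lower at an unadjusted p under 0.05 (3.47% of all genes were higher), and 8 had separate groups, all higher (2.82% of all genes). These 8 were Cxcl9, Zbp1, Iigp1, Rtp4, Cxcl10, Gbp3, Xaf1 and Irgm1, with differences from 0.63 to 1.36. Among the members without separate groups, Oas1a (0.17), Mx1 (0.24), Mx2 (0.09) and Bst2 (-0.04) lay nearer 0. They do not stand for all type I response genes of the list, as 20 of the 21 members had differences above 0. Herc6, an interferon-induced ligase outside the list, differed by 0.88, and Il18bp, the interferon-induced antagonist of interleukin 18, by 0.35.

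A single animal contributed much of the list's size. Mutant NaCl array 1 was the highest of the 7 arrays in 20 of the 21 genes, and control array 1 was the lowest in 13. Averaged over the list, the controls were at 7.90, 8.33 and 8.27 and mutant NaCl at 9.76, 8.41, 8.71 and 8.68, so all 4 lay above the controls but 1 stood apart. Without mutant NaCl array 1 the median was 0.33, and without control array 1 it was 0.54. Within females the median was 0.64 and within males, where neither mutant NaCl array 1 nor the female control enters, it was also 0.64. The male value rests on mutant NaCl array 4 alone, and its controls include control array 1, the lowest on average, so it too depends on single arrays. Mutant NaCl array 1 also had the highest means of the B cell (8.96) and T cell (7.55) markers among the 7 arrays, and the part of these cells in the interferon-induced differences was not tested. The confidence interval lay within a 2-fold difference for 5 of the 21 genes, against 98.5% of all genes.

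**Figure D4:**
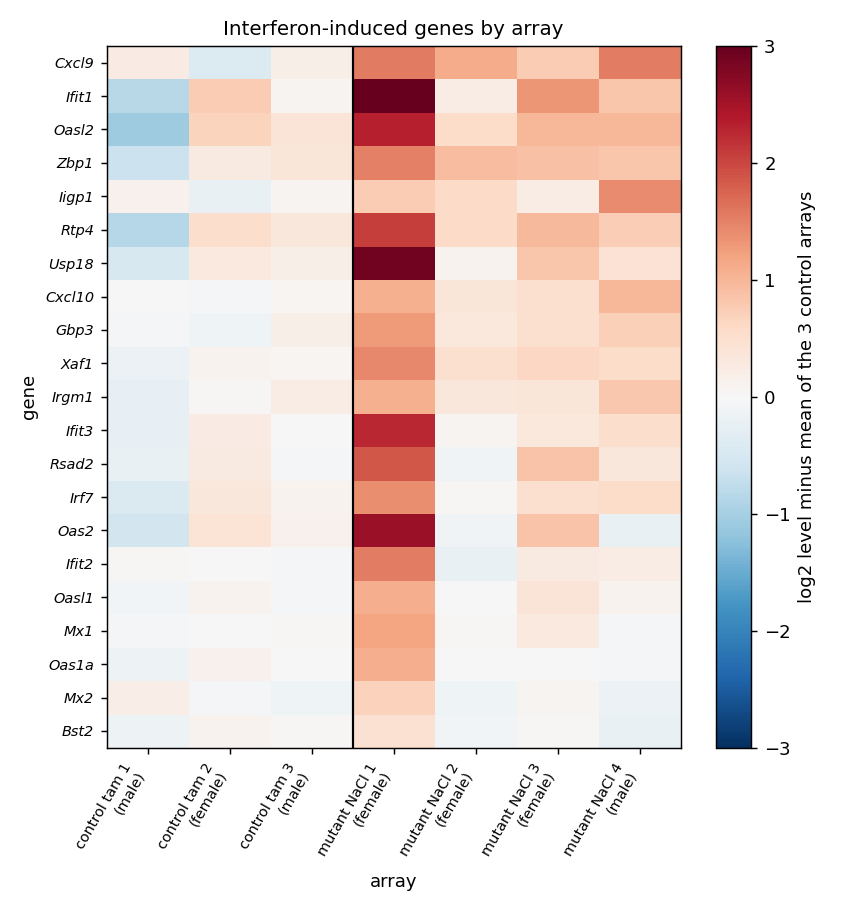
Color gives the log2 level of each of the 21 interferon-induced genes (rows, ordered by fitted difference) in each of the 7 arrays (columns) minus the mean of the 3 control arrays. Mutant NaCl array 1 is the darkest column for 20 of 21 genes, while Cxcl9, Zbp1 and Cxcl10 at the upper end are raised in all 4 mutant NaCl arrays.

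Among genes of antigen presentation, Ciita, the master regulator of MHC class II genes, read 7.90, 7.92 and 8.35 in the controls and 8.99, 8.97, 8.64 and 8.79 in mutant NaCl, with separate groups and a difference of 0.82 (SE 0.23, adjusted p = 0.516). All 9 MHC class II presentation genes had differences above 0, from 0.29 for Cd74 to 1.03 for H2-Ob, with a median of 0.51. None passed the threshold. Ciita was the 1 gene of the 9 with an unadjusted p under 0.05 (3.47% of all genes were higher at that p), and Ciita and H2-DMa were the 2 with separate groups (2.82% of all genes were separate and higher). The list means overlapped, with control array 3 at 10.07 and mutant NaCl array 4 at 9.97. The list median was 0.37 without mutant NaCl array 1, the array with the highest B cell marker mean, and the part of B cells was not tested. In mutant tamoxifen the median difference from control tamoxifen had the opposite sign, -0.46.

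Xcr1 and Clec9a, markers of the cross-presenting dendritic cell (cDC1), were among the genes of smallest p. Xcr1, its chemokine receptor, read 6.64, 6.30 and 6.41 in the controls and 6.99, 7.01, 6.79 and 6.93 in mutant NaCl, a difference of 0.50 (SE 0.09, adjusted p = 0.399). Clec9a, its receptor for dead cells, read 5.69, 5.33 and 5.58 against 5.73, 5.91, 5.79 and 6.07, a difference of 0.44. Both groups of values were separate, although the gap between the nearest Clec9a values was small. By mean level Clec9a was in the lowest 25% of genes and Xcr1 in the lowest 50%. No list of cDC1 markers was set and both genes were named by their p, so a change in these cells was not tested. The macrophage and dendritic cell list had a median of -0.14, with 13 of 16 members below 0. Tagap, a signaling gene of activated lymphocytes, differed by 0.48, and Gpr141b, an orphan receptor, by 0.67 with controls at 6.65 to 7.32 and mutant NaCl at 7.38 to 7.77. In mutant tamoxifen Xcr1 was at 6.27 to 6.42 and Gpr141b at 6.73 to 6.88, at or below the control values.

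The other genes of smallest p that read higher were Lpo, lactoperoxidase (0.82; controls 11.59 to 11.78, mutant NaCl 12.28 to 12.66), Lynx1, a modulator of nicotinic receptors (0.50), Pik3c2g, a lipid kinase (0.50), Cyrib, a regulator of actin (0.31), Ablim1, an actin-binding protein (0.30), and Mbnl1, a splicing regulator (0.21). Adjusted p for these 6 genes was 0.399 to 0.459. Mutant tamoxifen was close to control tamoxifen for Lpo (0.12) and Ablim1 (-0.10), and its differences were 0.66 for Pik3c2g and 0.43 for Cyrib. Cd72, a B cell coreceptor, differed by 0.91 in mutant NaCl and 1.44 in mutant tamoxifen.

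Proliferation genes read higher in mutant NaCl, with control array 1 as the low point. All 32 measured members had differences above 0, from 0.08 for Mcm7 to 0.52 for Top2a, with a median of 0.34; 17 were higher at an unadjusted p under 0.05 (3.47% of all genes) and 0 lower, and 0 passed the threshold. Mki67, the proliferation antigen, read 10.56, 10.90 and 11.09 in the controls and 11.14, 11.26, 11.25 and 11.54 in mutant NaCl. Top2a, topoisomerase of replicating DNA, read 9.03, 9.41 and 9.69 against 9.73, 9.88, 9.78 and 10.16. For both genes control array 3 lay just below the lowest mutant NaCl array and control array 1 lay lowest, as it did for all 32 genes.

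In all, 4 of the 32 had separate groups, all higher (2.82% of all genes): Mki67, Kif20a, Cenpf and Top2a. The list mean was 8.55, 8.94 and 9.16 in the controls and 9.18, 9.15, 9.10 and 9.33 in mutant NaCl, which overlapped. Without control array 1 the list median was 0.18. Control array 1 also had the lowest mean of the squamous epithelium genes, 6.76, whose part in the proliferation values was not tested. The median difference of mutant tamoxifen from control tamoxifen was 0.79. The 20 crypt stem cell and Wnt target genes had a median of 0.03, with 0 members higher and 1 lower (4.67% of all genes) at an unadjusted p under 0.05; that gene was Prom1 (-0.44).

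Cholesterol synthesis followed the same array. The 20 measured genes had a median of 0.28, and control array 1 had a mean level of 9.72 against 10.64 and 10.27 in the other controls and 10.49 to 10.56 in mutant NaCl. Without control array 1 the median was 0.08, and without control array 2 it was 0.61. Within females the median was -0.16 and within males 0.58. Cyp51, a demethylase of the sterol pathway, read 8.38, 9.94 and 9.47 in the controls and 9.87 to 10.00 in mutant NaCl.

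The goblet and mucus genes held one of the widest spreads within the controls. Retnlb, a goblet cell protein made in response to microbes and worms, read 5.17, 8.86 and 9.24 in the controls and 5.41, 5.98, 5.24 and 5.30 in mutant NaCl, so control array 1 was as low as mutant NaCl while the other 2 controls were high. Its difference of -2.61 carried a confidence interval of -4.45 to -0.78. In mutant tamoxifen Retnlb was at 9.89 to 11.63. Ang4, an antimicrobial ribonuclease, differed by -1.61 with overlapping groups. Of the 19 genes 4 were lower and 2 higher at an unadjusted p under 0.05 (4.67% and 3.47% of all genes), and 2 were separate and lower and 1 separate and higher (5.32% and 2.82% of all genes), with Tff3, trefoil factor 3, at -0.32 and Fer1l6 at -0.40 as the separated lower members and Muc4 at 0.39 as the separated higher one; the median was -0.13, and Muc2 differed by -0.13.

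The mean levels of 12 lists show which differences were shared by all animals of a group. Of these 12, the calcium and phosphate, xenobiotic response and interferon-induced lists had means that did not overlap between the groups. A mean can rest on few members: the median difference was -0.11 for calcium and phosphate and -0.06 for xenobiotic response. The xenobiotic response median was 0.02 with the lowest 50% of genes left out. The male accessory gland list, outside the 12, also had means that did not overlap, at a low mean level. Its means were 5.70 to 5.73 in the controls and 5.56 to 5.66 in mutant NaCl. Its member Spink1 was not at a low level, with means of 11.1 in the controls and 10.5 in mutant NaCl. Spink1 differed by -0.80 with overlapping groups, against a list median of -0.04. The squamous, B cell and cholesterol lists spread widely within the controls, and their medians depended on sex or on 1 array.

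**Figure D5:**
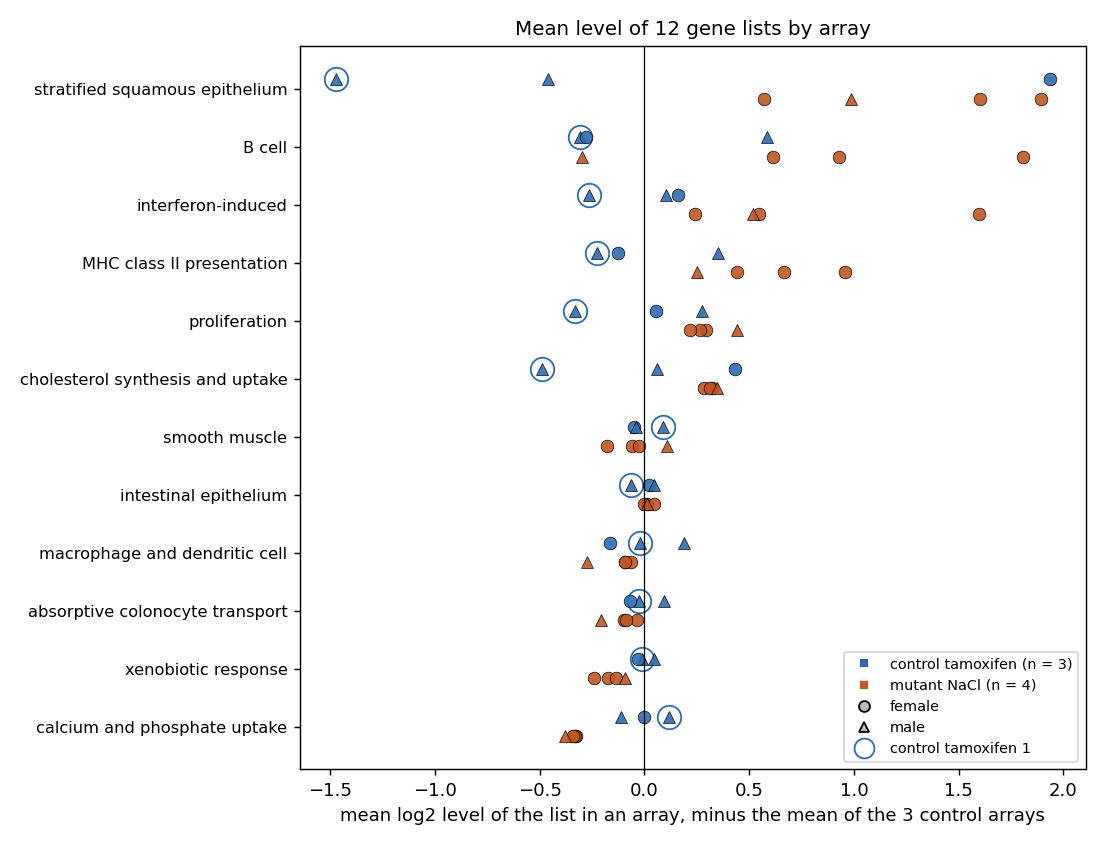
The horizontal axis is the mean log2 level of a gene list in 1 array minus the mean of the 3 control arrays, with a row per list, color for the group and shape for the sex; a ring marks control tamoxifen array 1. Calcium and phosphate uptake and xenobiotic response lie lower in all 4 mutant NaCl arrays, interferon-induced genes lie higher, and the squamous and B cell rows span the widest ranges.

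Within-sex values qualified several lists. The squamous genes had a pooled median of 0.52, with -0.68 in females and 1.95 in males: the female control, at a mean of 10.16, was above every mutant NaCl array, and the male controls, at 6.76 and 7.77, were below them. The squamous median was -0.14 without mutant NaCl array 4 and 1.45 without control array 2. The 14 B cell genes had a pooled median of 0.58, with 1.39 in females and -0.41 in males, and means of 6.84, 6.87 and 7.74 in the controls against 8.96, 7.76, 8.08 and 6.85 in mutant NaCl. Ms4a1, which encodes CD20, ran from 5.83 to 8.18 in the controls and from 6.53 to 10.09 in mutant NaCl. For B cells 0 of 14 genes were under an unadjusted p of 0.05 (8.15% of all genes) and 0 had separate groups (8.14% of all genes). T cell genes had a median of 0.16 (0.42 in females, -0.15 in males) and plasma cell genes 0.05 (0.41 and -0.49). The interferon-induced, calcium and phosphate and proliferation medians had the same sign in both sexes.

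A test of whether the difference itself depended on sex called 8 genes at an adjusted p under 0.05 (limma, Benjamini-Hochberg), and 1301 had an unadjusted p under 0.05. It compares 3 against 1 female arrays with 1 against 2 male arrays, so it turns on the single male of mutant NaCl and the single female control. The hair keratin-associated gene Krtap19-1 read 8.17 in that male, mutant NaCl array 4, and 4.82 to 5.17 in the other 6. Krtap19-2, Krtap19-3 and Krtap19-5, the predicted gene Gm11559 and Nxpe5 were likewise highest there. Ighm, the immunoglobulin mu chain, and an immunoglobulin kappa variable segment were lower in mutant NaCl array 4 than in the male controls. For Ighm the female control read lower still, 10.12 against 10.22 in mutant NaCl array 4. Over the 44 Krtap genes measured, a group singled out after the values were seen, the mean level was 7.07 in mutant NaCl array 4 and 6.07 to 6.37 in the other 6.

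The remaining lists lay close to the median of all genes. Among functions, the medians were -0.05 for fatty acid oxidation and ketogenesis (18 genes), 0.02 for antimicrobial and epithelial defence (26), -0.03 for wound and regenerative epithelium (17), 0.02 for the circadian clock (18), 0.02 for immediate early and stress genes (18), 0.03 for the unfolded protein response (20), -0.04 for the respiratory chain (22) and 0.00 for Hox and rectal position genes (15). Within them Ciart, a repressor of the clock, differed by 0.52 and Reg4, a secreted lectin, by -0.42, both with overlapping groups, and Ido1, which degrades tryptophan, by 0.72 with separate groups. The neutrophil list had a median of -0.03, and its members S100a9 and Retnlg differed by -0.32 and -0.29. In mutant tamoxifen the neutrophil, wound and antimicrobial lists had medians of 0.65, 0.93 and 0.59 against control tamoxifen.

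Among the other cell type lists, medians were -0.01 for smooth muscle (13 genes), -0.27 for skeletal muscle (15), -0.12 for enteroendocrine cells (14), -0.03 for tuft cells (9), 0.02 for mast cells and eosinophils (13), -0.05 for endothelium (13), 0.03 for fibroblasts (11), 0.06 for adipocytes (8), -0.07 for enteric neurons and glia (12) and -0.04 for male accessory gland genes (10). The skeletal muscle value came from control array 3, and the median without it was 0.02. Of the 13 smooth muscle, 11 fibroblast and 13 endothelium genes, all had a confidence interval within a 2-fold difference, as did 98.5% of all genes.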

How the data were processed

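The authors deposited 1 log2 value per transcript cluster and array, made with RMA in Expression Console version 1.1 from images read in Command Console version 2.0, per the labels and the series design text. RMA subtracts background, brings arrays to 1 distribution and combines the probes of a cluster. The submitters' processing notes also name Partek. The genome build behind the clusters was not given in the sources used here; detection calls and scan dates were not used. Array medians were 7.29 to 7.35, and the number of arrays limits the precision.

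Of 35556 clusters, 21797 had 1 gene symbol in the platform annotation, 1613 had several and 12146 were not listed; the last 2 classes were left out. Of the symbols 21774 matched a RefSeq table (GRCm38.p6) and 23 were kept as given. For 999 genes with several clusters the one with the highest mean was used, with no filter on level.

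Genes were fitted with limma 3.58.1 (R 4.3.3) on all 11 arrays, with a mean per group, a sex term and a trend in the moderated variances. P-values were two-sided and adjusted over the 19946 genes by Benjamini-Hochberg, with a threshold of 0.05. Within-sex values came from a fit with a mean per group and sex. Folds are 2 to the power of the size of the log2 difference. The steps were tested on simulated data.

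Named genes were Itga6 with 10 neighbours on each side, the 12 genes of smallest p per direction, the 8 largest differences per direction among genes with separate groups and a mean at or above the median, and up to 4 members of smallest p per list. Predicted, immunoglobulin, receptor, small RNA and sex-linked genes were left out except through lists, and other list members are named where a count turns on them. The 37 lists (19 functions, 18 cell types) had 623 genes measured. Members, lists and rules were chosen with earlier results of these data known. Alternatives changed the sex term, arrays, filters, normalisation, variance model, weights and choice of cluster.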

Additional observations from a re-analysis of the deposited data

Results flagged for a closer look

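Among the 4 mutant NaCl arrays, a single array stood apart from the other 3 by Dixon's test in 6 of 73 genes and lists examined; chance gives about 1 in 20. Zbp1, a sensor of nucleic acids, read 10.56 in mutant NaCl array 1, the highest of the group, and the export pump Abcc2 read 7.46 in the same array, also the highest. Bnip3 read 9.45 in mutant NaCl array 3, the lowest. The mean of the unfolded protein response genes was 9.93 in mutant NaCl array 4 and that of the macrophage and dendritic cell genes 8.98 in the same array, both the lowest of the group. The mean of the enteroendocrine genes was 8.69 in mutant NaCl array 3, the highest. No cause of these values was tested.

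For 8 genes the difference between mutant NaCl and control tamoxifen depended on sex, tested as an interaction in limma with Benjamini-Hochberg adjustment over all genes. The difference within females minus that within males was -3.26 for Krtap19-5, -3.08 for Krtap19-1, -3.41 for Krtap19-3, -2.89 for Krtap19-2, -2.18 for Gm11559 and -1.83 for Nxpe5, where the male difference was positive and larger. It was 2.36 for Ighm and 2.56 for a kappa variable segment (Igkv9 family), where the female difference was positive and the male one negative. For all 8 the male value rests on 1 mutant NaCl array and the female value on 1 control array.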

How the results depend on the processing

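The main analysis called 0 genes. The 7 arrays of these groups alone gave 3 (S100g, Slc34a2 and Apod), and the same without the sex term 3 (S100g, Slc34a2 and Fmo5). Leaving out the lowest 50% of genes, centring arrays on their median, a second quantile normalisation and array weights each gave 1, S100g. Males alone, 1 array against 2, gave 27, of which 20 were higher, many of them Krtap genes, and 7 lower. With single arrays left out the count was 0 to 3: it was 3 without control tamoxifen array 2 (Apoe, Wfdc17 and Fcgr3), 2 without mutant tamoxifen array 4 (S100g and Apod), and 1 without mutant tamoxifen array 2 (S100g) or mutant NaCl array 1 (Hsd3b3). Fmo5, Apoe, Fcgr3 and Hsd3b3 are named after their values were seen. The remaining settings gave 0. The cause of these changes was not tested. The share of genes with a confidence interval within 2-fold was 96.8% to 98.7%.

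Of the 36 named genes checked under up to 24 settings, each kept its sign except Itga6, which lay near 0. Apart from Itga6, they were chosen for small p or separate groups in these same arrays. A kept sign was thus close to given and is no independent check. Of 855 gene values 14 passed the threshold, 8 for S100g and 2 each for Slc34a2, Apod and Wfdc17. Of 912 list medians, 38 moved by more than the spread between arrays. No paired analysis was run, since the groups hold different mice and the labels name no pairs. With 1 control female and 1 mutant NaCl male, within-sex values have little support.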
